A study of Mus musculus with 6 samples.

Results

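Deposited cluster 1 of the chimaera experiment held 2631 of its 15352 germinal centre (GC) B cells, and 38651 cells were deposited for the whole series. Its members were the cells that the authors' cell table numbers 1. The control library gave 1339 of them, 16.7% of its 8038 cells (exact 95% Clopper-Pearson interval 15.8 to 17.5). The KO library gave 1292, 17.7% of its 7314 cells (16.8 to 18.6). Both libraries were made from spleen 14 days after adult mice received NP-haptenated antigen in alum intraperitoneally, from cells sorted as B220+ CD95hi GL7hi IgD-, with 5-prime droplet RNA sequencing. The hosts were irradiated and rebuilt with wild-type marrow. Control hosts were Il4ra+/+ and KO hosts were Ccl19Cre/+ Il4raf/f, so the IL-4 receptor alpha chain is deleted in stromal cells of the Ccl19 lineage, to which follicular dendritic cells belong. Radiation-resistant host cells keep the host genotype, while the sequenced B cells derive from wild-type marrow in both groups. The control hosts are not stated to carry Ccl19Cre. Each group was 1 library, and the labels do not give the number of mice behind it. No test between groups was therefore possible, and differences between the host genotypes and other differences between the 2 libraries cannot be told apart.

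GC B cells alternate between a light zone, where they compete for antigen and T cell help, and a dark zone, where they divide and mutate their antibody genes. Before a cell copies its DNA, the MCM proteins are loaded at replication origins with the help of CDC6 and CDT1. E2F transcription factors drive these genes at the border of G1 and S phase, whereas genes of mitosis are held back until G2 by complexes that bind CHR elements in their promoters. The glycosylase UNG removes uracil from DNA.

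The cluster held 12711107 unique transcript counts (UMIs) in the control library and 13517898 in the KO library. Its cells were deeper than the other cells of their library, with medians of 8706 and 9747.5 UMIs against 6096 and 6455.5. Levels below are UMI counts summed within a library and scaled to the same total in every group of cells (CPM), and intervals around ratios and shares are 95% intervals for counting error only. Of the barcodes, 90 occurred in both libraries, and 15 control and 18 KO cells of the cluster carried one of them. All 16 genes of a GC B cell identity list were measured in the cluster, among them Mef2b, a transcription factor of GC B cells, at 549 and 410 CPM and S1pr2, which confines B cells to the GC, at 174 and 145 CPM in the control and KO cluster. Summed CPM of 10 T cell markers was 88.9 and 60.5, nearly all of it Lck. The sum over 10 myeloid markers was 195 and 205, led by Cst3, and over 5 erythroid markers 104 and 71.0, led by Hbb-bt. Natural killer cell markers summed to 0.315 and 0.148 CPM, with Klrd1 and Ncr1 at 0, and of the 5 stromal markers in the table, Ccl19 was at 0 and Cr2, a gene of B cells too, was the highest.

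Most cells of cluster 1 were called S phase in the authors' table. The S call was given to 913 of 1339 control cells (68.2%, 65.6 to 70.7) and to 877 of 1292 KO cells (67.9%, 65.3 to 70.4). Among the other cells of the same libraries, S calls made up 20.7% and 21.4%. The remaining cells were called G1 (20.6% and 19.0%) or G2M (11.2% and 13.2%). The cluster was 16.7% and 17.7% of all cells but held 39.7% and 40.5% of all S calls. Cluster 4 held the next largest share of S calls, 16.9% and 13.4%.

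Both zones were represented. Dark zone (DZ) calls covered 57.6% of the control cells (54.9 to 60.2) and 61.8% of the KO cells (59.1 to 64.4). Light zone (LZ) calls covered 32.5% and 32.9%. The zone was unknown for 9.93% of control cells (8.38 to 11.7) and 5.34% of KO cells (4.18 to 6.71). It was unknown for 7.61% (6.99 to 8.27) and 4.83% (4.30 to 5.40) of the other cells, so the KO share was lower there too. These intervals cover counting error only. Within the S calls of the cluster, DZ cells were 57.2% and 60.9% and LZ cells 32.1% and 33.5%. Nearly all G2M calls were DZ, with 2 LZ cells in the control library and 4 in the KO library. The G1 cells leaned the other way, with 140 LZ against 101 DZ cells in the control library and 127 against 98 in the KO library. How the authors made the phase and zone calls is not given in the sources used here.

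**Figure D1:**
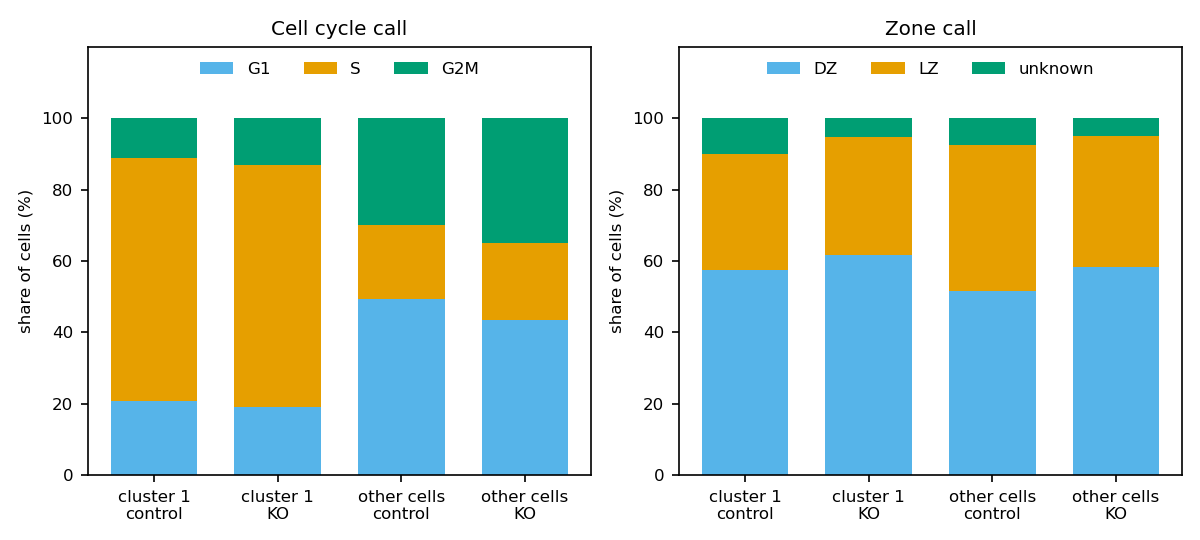
Share of cells (%, vertical axis) by cell cycle call (left) and zone call (right) for cluster 1 and for the other cells of the control and KO libraries. S calls make up 68.2% and 67.9% of cluster 1 against 20.7% and 21.4% of the other cells, while DZ and LZ calls are both frequent in each bar.

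Cells of cluster 1 were set against all other cells of the same library. A gene was called higher when, in both libraries, it reached 20 CPM in the cluster, its log2 ratio was at least 0.5 and its interval lay above 0. For a lower call the 20 CPM applied to the other cells, with the ratio at or below -0.5 and its interval below 0. By these rules 48 of 4824 non-immunoglobulin genes were called higher (0.995%) and 139 of 4854 were called lower (2.86%). The cells had been clustered on their expression, so these genes describe how the cluster was drawn and carry no test. With every cell thinned to 2000 UMIs, so that depth is alike, the counts were 84 and 144. Just inside the rule were Cdc45, with log2 ratios of 0.61 and 0.51, and Chaf1a, with 0.65 and 0.51. Just outside were Gmnn, with 0.62 and 0.49, and Akip1, with 0.51 and 0.50 (0.496 before rounding). Of the 16 markers in the S phase list, 13 were raised past the rule in the pooled cells, 6 stood among the 10 leading genes, and their median log2 ratio was 0.72. The cluster can thus be called S-phase-like, a state that GC B cells of either zone can pass through.

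The leading genes were those of replication licensing and the start of DNA synthesis. Ung, the uracil glycosylase, stood at 82.4 CPM in the control cluster and 33.6 CPM in the other control cells, and at 84.3 against 33.1 CPM in the KO library. The log2 ratios were 1.29 and 1.35, the largest among the called genes when the smaller ratio of each gene was ranked. Cdc6, a loader of the MCM helicase, was at 63.7 against 26.9 CPM in the control library and 59.4 against 30.3 CPM in the KO library. Mcm6, a subunit of that helicase, was at 406 against 199 CPM and 383 against 204 CPM. E2f1, the transcription factor, was low in both, at 26.6 against 14.5 CPM and 28.2 against 15.6 CPM. Each of these 4 genes was higher in the cluster of both libraries, with intervals above 0.

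Other leading genes belonged to the same machinery. Mcm2, Mcm3 and Mcm4 had log2 ratios of 1.05, 0.95 and 0.99 in the control library and 0.82, 0.78 and 0.73 in the KO library. Gins2, part of the active helicase, had ratios of 1.05 and 0.89. Dscc1, part of an alternative clamp loader, had ratios of 1.02 and 0.997. Rfc3 of the standard clamp loader had ratios of 0.87 and 0.71. Rpa2, which coats single-stranded DNA, had ratios of 0.79 and 0.69, and Chaf1b, which deposits histones behind the fork, 0.80 and 0.69. Dtl, which helps to destroy CDT1 once replication begins, had ratios of 0.95 and 0.88. Cdca7 (153 against 76.8 CPM in the control library) and Rassf7 (24.6 against 14.9 CPM) completed the 15 genes with the largest ratios.

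**Figure D2:**
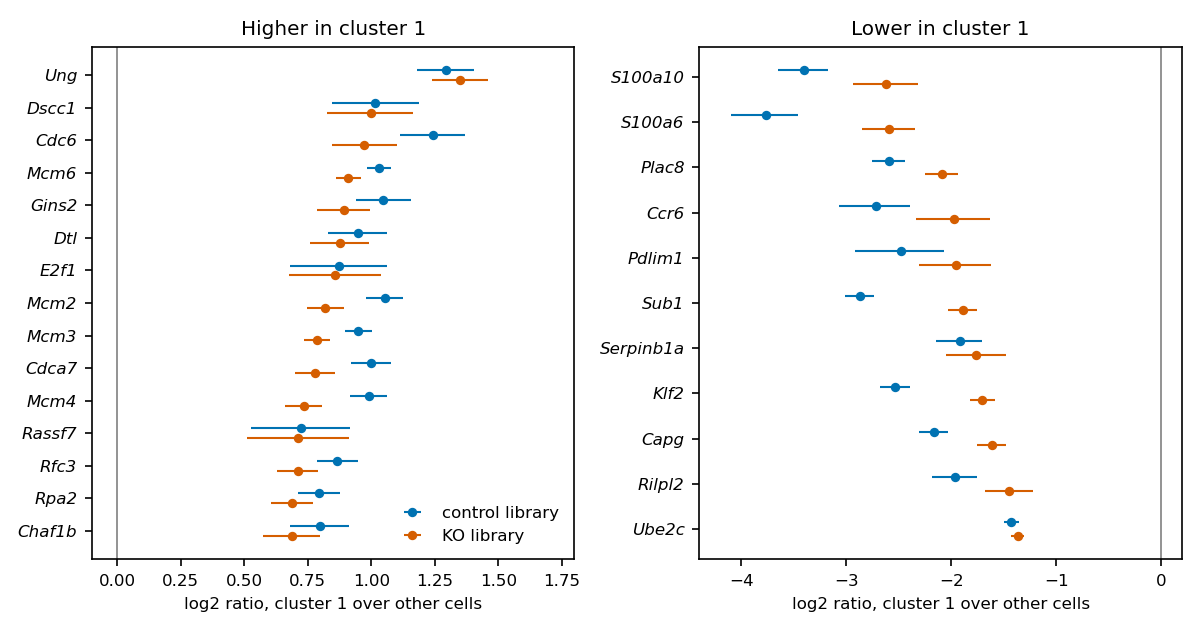
Log2 ratio (horizontal axis) of cluster 1 over the other cells of the same library for the 15 called higher genes (left) and 11 of the 12 called lower genes (right) with the largest ratios; points are library values and bars 95% intervals for counting error. Ung leads on the left at 1.29 and 1.35, and S100a10 leads on the right at -3.41 and -2.62.

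Of the 16 genes in the S phase list, 14 were higher in the cluster of both libraries and 12 were called, against 43.9% of all measured genes higher in both. Slbp, which binds histone mRNA, stood at 389 against 238 CPM in the control library. Dut, which clears dUTP, was higher (log2 0.59 and 0.47) without being called, as was Rrm2 of ribonucleotide reductase (0.36 and 0.28). Rrm1, the partner subunit, had log2 ratios of 0.05 and -0.04, and Tyms, which makes thymidylate, 0.07 and -0.06. The other 12 genes of the list, the MCM genes among them, were called, whereas these 4 genes of nucleotide supply were not.

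The 3 leading genes below are shown because their promoter windows, 250 bases before to 50 after the annotated start, hold 8-letter E2F-type motifs. The letters searched were TTTCCCGC, TTTGGCGC, TTTCGCGC and TTTGCCGC on both strands, where overlapping matches were counted. Sequences are from RefSeq on GRCm38.p6 and are written 5′ to 3′ on the gene's strand, with matches in capitals. Mcm6 lies at chr1:128359656-128359955 (minus strand), Mcm3 at chr1:20820263-20820562 (minus strand) and Cdc6 at chr11:98907901-98908200 (plus strand).
Mcm6: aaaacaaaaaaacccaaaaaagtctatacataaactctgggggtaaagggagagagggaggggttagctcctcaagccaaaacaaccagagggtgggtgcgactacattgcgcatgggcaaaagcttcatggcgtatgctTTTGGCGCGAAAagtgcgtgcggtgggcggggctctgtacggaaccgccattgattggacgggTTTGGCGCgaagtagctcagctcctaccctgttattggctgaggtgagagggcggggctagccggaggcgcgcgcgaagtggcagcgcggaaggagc
Mcm3: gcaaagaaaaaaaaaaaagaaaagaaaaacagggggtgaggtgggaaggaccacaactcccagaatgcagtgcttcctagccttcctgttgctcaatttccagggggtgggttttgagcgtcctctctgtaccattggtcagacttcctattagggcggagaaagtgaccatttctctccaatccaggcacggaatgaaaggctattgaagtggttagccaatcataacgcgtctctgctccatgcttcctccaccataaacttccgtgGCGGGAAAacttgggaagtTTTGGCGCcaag
Cdc6: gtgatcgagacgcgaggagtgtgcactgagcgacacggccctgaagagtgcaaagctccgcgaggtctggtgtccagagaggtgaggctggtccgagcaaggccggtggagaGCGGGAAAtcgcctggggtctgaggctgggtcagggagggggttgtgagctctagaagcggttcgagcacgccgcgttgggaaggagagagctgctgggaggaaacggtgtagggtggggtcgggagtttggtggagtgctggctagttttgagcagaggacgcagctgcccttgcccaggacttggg
The Mcm6 window holds 3 matches, the Mcm3 window 2 and the Cdc6 window 1. Of the 48 genes called higher, 39 had a promoter in the RefSeq table and 18 of them (46.2%) held such a motif. The share was 6.36% among the 3742 genes with 20 CPM in the cluster and a promoter, and 1 of 96 (1.04%) among genes called lower. Among all 27025 genes with a promoter it was 2.605%. Counted by window, it was 2.26% of all 32851 windows of this length. Ung, E2f1 and Mcm2 had no match, which says only that these letters are not in their windows. The E2f1 window, chr2:154569377-154569676 (minus strand), does not reach the gene start in the GENCODE annotation, 154569892. The bases before that start were therefore not searched. A match is a description of the letters and not a measured binding site.

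Across the 8 deposited clusters, Mcm6, Cdc6, Gins2, Dscc1 and Rassf7 were at their highest in cluster 1 in both libraries. Ung was higher still in cluster 6, at 98.1 and 94.7 CPM, and E2f1 in cluster 4, at 37.9 and 32.8 CPM. The S phase list as a whole took 0.379% of UMIs in the control cluster and 0.375% in the KO cluster. Cluster 6 stood at 0.368% and 0.386%, and cluster 4 at 0.333% and 0.331%. The order of clusters 1 and 6 differed between the libraries, so neither led in both. The 5 other clusters lay between 0.128% and 0.303%.

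**Figure D3:**
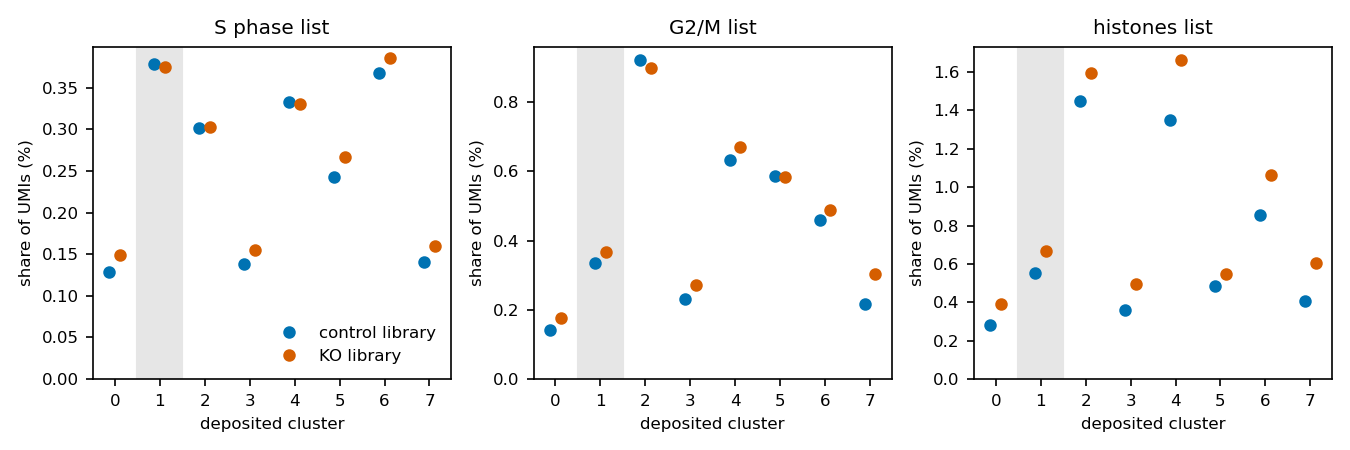
Share of UMIs (%, vertical axis) taken by the S phase list (left), the G2/M list (middle) and the histone list (right) in each deposited cluster (horizontal axis; cluster 1 shaded), with 1 point per library. Cluster 1 is among the highest for S phase genes (0.379% and 0.375%) and well below cluster 2 for G2/M genes (0.336% and 0.367% against 0.920% and 0.898%).

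The phase call split the cluster, and the leading genes were compared within it. S-called cells of cluster 1 put 0.459% and 0.454% of UMIs into the S phase list, against 0.227% and 0.230% in its G1-called cells and 0.234% and 0.239% in its G2M-called cells. Against other cells with the same call, the 48 leading genes behaved differently by call. Among S calls their median log2 ratio was 0.13 (control) and 0.12 (KO), with 1 gene past 0.5 in each, where 1.47% and 1.001% of all genes were past it. Among G1 calls, 48 of 48 were above 0 and 46 past 0.5 in both libraries, with medians of 1.04 and 0.90. Of all genes tested among G1 calls, 66.1% and 63.7% were above 0, and 6.88% and 5.14% past 0.5. Among G2M calls the medians were 0.19 and 0.21, against -0.06 and -0.05 over all genes, and 6 and 7 of the 48 were past 0.5, against 0.723% and 0.545% of all genes.

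Mcm6 had its largest ratios among G1 calls, and Ung among both G1 and G2M calls. Among G1 calls, Mcm6 was at 280 CPM in cluster 1 and 123 CPM elsewhere in the control library, and at 276 against 136 CPM in the KO library. Among S calls it was at 497 against 400 CPM and 463 against 387 CPM. Ung among G1 calls was at 41.7 against 18.9 CPM and 50.3 against 18.7 CPM, and among S calls at 107 against 93.9 CPM and 109 against 89.9 CPM. Among G2M calls Ung was at 26.4 against 9.46 CPM and 28.3 against 10.7 CPM, log2 ratios of 1.48 and 1.40 beside 1.15 and 1.43 among G1 calls, whereas Mcm6 had 0.24 and 0.42. The G1 comparison covered 276 and 245 cells of cluster 1 against 3312 and 2625 others. Most of those others lay in cluster 0 (1768 control and 1607 KO cells) and cluster 3 (994 and 652). The S phase list took 0.128% and 0.149% of UMIs in cluster 0 as a whole and 0.138% and 0.155% in cluster 3. When the other cells were given the phase make-up of cluster 1, 7 genes were called higher instead of 48 and only 1 gene was shared, while 83 were called lower, 67 of them shared with the 139.

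**Figure D4:**
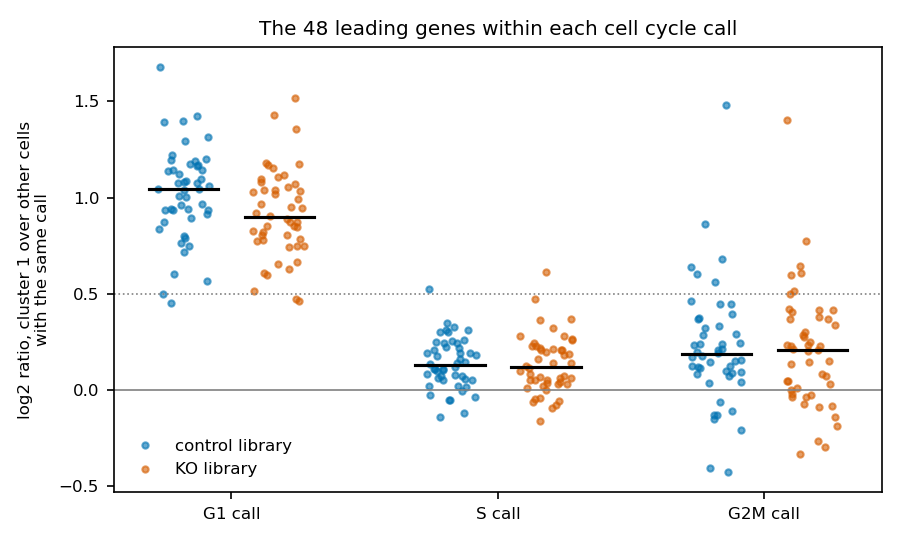
Log2 ratio (vertical axis) of cluster 1 over other cells with the same cell cycle call (horizontal axis) for the 48 leading genes, by library; each point is a gene, black bars are medians and the dotted line marks 0.5. The medians are 1.04 and 0.90 among G1 calls but 0.13 and 0.12 among S calls.

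Genes of later cell cycle steps were lower in the cluster than in all other cells together, but not among G1 calls. All 18 genes of the G2/M list were below the other cells in both libraries and 15 were called, against 31.4% of all measured genes lower in both. Ube2c, the ubiquitin carrier of mitotic exit, was at 150 CPM in the cluster and 402 CPM in the other control cells, and at 187 against 484 CPM in the KO library. Plk1, a mitotic kinase, had log2 ratios of -1.51 and -1.25, and Ccnb1, cyclin B1, of -1.45 and -1.20. Mki67 (-0.22 and -0.24) and Top2a (-0.26 and -0.33), genes of cycling cells generally, were not called. The list took 0.336% and 0.367% of UMIs in the cluster against 0.481% and 0.530% elsewhere. Clusters 0, 3 and 7 were lower still. Against other cells with the same call, all 18 genes were lower among S calls (medians -0.69 and -0.52) and among G2M calls (-0.80 and -0.74). Among G1 calls 17 of 18 were higher in the control library and 18 of 18 in the KO library (0.43 and 0.55). Mki67 was at 301.3 against 152 CPM and Ube2c at 113 against 98.0 CPM among G1 calls of the control library. Most of the other G1-called cells lay in clusters 0 and 3.

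Histone genes, whose mRNA accumulates as DNA is copied, were lower than in the other cells together. All 13 listed genes were below the other cells in both libraries, against 31.4% of all measured genes. The rule called 11 of the 13 lower, against 2.86% of the genes tested. Hist1h2ap was at 1956 against 3145 CPM in the control library and 2668 against 4383 CPM in the KO library. The histone list took 0.555% and 0.669% of UMIs in cluster 1, against 0.857% and 1.06% in cluster 6, 1.35% and 1.66% in cluster 4 and 1.45% and 1.59% in cluster 2. Clusters 0, 3, 5 and 7 lay below cluster 1, at 0.282% to 0.482% and 0.389% to 0.605%. S calls made up 56.3% and 56.6% of cluster 6 and 51.0% and 42.0% of cluster 4. Among clusters 1, 4 and 6, histone transcripts thus took the smallest share in cluster 1. The KO library held more of them in the other cells as well (0.961% against 0.761%).

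The 3 lower genes below are shown because their windows hold the CHR motif TTTGAA, searched on both strands independently of the E2F-type letters, with which it may share end bases. Ube2c lies at chr2:164769679-164769978 (plus strand), Plk1 at chr7:122159185-122159484 (plus strand) and Cenpf, a kinetochore gene, at chr1:189688037-189688336 (minus strand), from RefSeq on GRCm38.p6.
Ube2c: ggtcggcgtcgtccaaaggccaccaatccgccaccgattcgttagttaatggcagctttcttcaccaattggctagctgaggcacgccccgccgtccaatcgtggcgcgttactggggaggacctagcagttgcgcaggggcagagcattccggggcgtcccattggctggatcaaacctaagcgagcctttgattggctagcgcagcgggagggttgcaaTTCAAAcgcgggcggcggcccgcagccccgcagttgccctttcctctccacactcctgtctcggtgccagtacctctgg
Plk1: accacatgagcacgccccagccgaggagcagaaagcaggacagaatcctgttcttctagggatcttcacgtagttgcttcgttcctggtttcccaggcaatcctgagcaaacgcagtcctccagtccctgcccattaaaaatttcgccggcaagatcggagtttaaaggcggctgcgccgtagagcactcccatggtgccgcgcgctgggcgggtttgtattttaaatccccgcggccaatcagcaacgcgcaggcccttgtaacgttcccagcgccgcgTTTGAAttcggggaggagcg
Cenpf: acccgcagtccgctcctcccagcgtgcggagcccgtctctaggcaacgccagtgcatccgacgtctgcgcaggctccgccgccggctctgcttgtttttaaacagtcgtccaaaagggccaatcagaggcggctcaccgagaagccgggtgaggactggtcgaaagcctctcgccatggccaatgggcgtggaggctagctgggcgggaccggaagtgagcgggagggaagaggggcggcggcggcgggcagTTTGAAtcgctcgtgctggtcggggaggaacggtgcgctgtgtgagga
Each window holds 1 match. The motif stood in 44 of the 96 called lower genes with a promoter (45.8%), in 11 of 16 of the G2/M list, in 4 of 39 called higher (10.3%) and in 563 of the 3742 genes with 20 CPM. Over all 27025 genes with a promoter the share was 20.2%, and counted by window it was 17.9%. Ccnb1 and Birc5 had no match of these letters in their windows.

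A further set of lower genes marks other GC fates. S100a10 was at 11.6 CPM in the control cluster and 123 CPM in the other control cells, and at 6.88 against 42.2 CPM in the KO library. S100a6 was at 6.69 against 91.1 CPM and 10.1 against 61.2 CPM. Both were at their highest in cluster 3, at 474 and 388 CPM in the control library. Of 12 memory precursor genes, 11 were lower in both libraries and 6 were called, among them Ccr6, a chemokine receptor of memory B cells (log2 -2.72 and -1.98), and Klf2, a regulator of egress (-2.53 and -1.70). Bach2, which restrains plasma cell fate, was the exception, at 0.23 and 0.20. The low level was not particular to cluster 1, where the memory precursor list took 0.0266% and 0.0265% of UMIs. Its share was 0.0294% and 0.0277% in cluster 2, 0.0185% and 0.0172% in cluster 5 and 0.0178% and 0.0164% in cluster 6. Cluster 3 was highest, at 0.166% and 0.124%. All 9 measured plasma cell genes were lower and 3 were called, with Slpi at 130 against 696 CPM in the control library. Over all genes, 31.4% of those measured were lower in both libraries and 2.86% of those tested were called lower. In cluster 7, Slpi reached 8286 CPM in the control library, and it lay between 97.5 and 206 CPM in the 6 remaining clusters.

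GC identity genes were slightly higher than in the other cells together and none was called. Of the 16, 14 were above the other cells in both libraries, with medians of 0.22 and 0.13. S1pr2 had the largest ratios in the list, 0.47 and 0.32, beside Rgs13 at 0.47 and 0.31. Light zone activation genes were mixed (5 higher, 8 lower of 14), as were the 10 dark zone genes (4 higher, 5 lower), 5 of which were called lower. These 5 were the cell cycle genes Ccnb1, Hmmr, Cdca8 and Kif20a and the translesion polymerase gene Polh. Over all measured genes, 43.9% were higher and 31.4% lower in both libraries, and 2.86% of the genes tested were called lower.

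By the level of 4984 genes, clusters 5 and 2 were most like cluster 1, with Spearman correlations of 0.962 and 0.955, where the remaining 5 lay between 0.815 and 0.943. These correlations are across genes of the same 2 libraries and describe likeness only. By ratios over the other cells, all 7 correlations were low and the order differed, with cluster 4 at 0.14, cluster 6 at 0.12, cluster 2 at 0.10 and cluster 5 at 0.09. Against cluster 5, 233 genes met the rule for a higher call in cluster 1 (4.93%) and 148 that for a lower call (3.16%). Cluster 1 held more Hist1h2ap (1956 against 487 CPM in the control library), more Cd83, an activation marker (269 against 98.6 CPM), and more Egr1, an immediate early gene (32.0 against 9.90 CPM). It held less Cdc20, an activator of mitotic exit (50.7 against 313 CPM), and less Ccnb1 (29.4 against 118 CPM). Against cluster 2, 112 genes met the rule for a higher call (2.37%) and 287 for a lower call (6.13%). Ung led the first group, at 82.4 against 18.8 CPM in the control library and 84.3 against 16.3 CPM in the KO library. Hist1h2ap was lower here, at 1956 against 6739 CPM, so its level in cluster 1 lay between those of both neighbours.

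The same gene pattern occurred in the 2 Day14 libraries, wild-type mice without chimaerism that were sorted with the same gate. Their deposited cluster 2 correlated best with cluster 1 in its log2 ratios over the other cells (Spearman 0.63 over 4685 genes, where the other 10 clusters lay at or below 0.16). Of the 48 leading genes, 48 were above 0 and 46 past 0.5 in each Day14 library, with medians of 1.03 and 1.002, against 3.01% and 2.67% of all genes past 0.5. This cluster, like the Day7 cluster below, was picked for its match to cluster 1 across genes. A shared direction of the 48 was thus partly built in and carries no test. S calls made up 74.4% and 73.3% of that cluster. Ung stood there at 53.9 against 14.97 CPM in the first library. E2f1 was at 159 against 58.7 CPM, well above its 26.6 CPM in the chimaera cluster, a comparison across separately made tables. In the Day7 libraries, from B220+ CD38- GL7hi cells, the best match was cluster 0 (0.41 over 4775 genes). There 43 and 33 of the 48 genes were above 0, and 5 and 2 past 0.5, against 1.39% and 1.19% of all genes.

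Within cluster 1, the KO library was then set against the control library. Cd23 (Fcer2a), a low-affinity IgE receptor that IL-4 induces, was at 177 CPM in the KO cluster and 87.4 CPM in the control cluster. To be past the size rule, a gene needed 20 CPM in one of the libraries, a log2 ratio of 0.5 or more in size with 0 outside its interval, and a bigger ratio than it had between the pair of Day14 libraries. By this rule 27 of 5070 non-immunoglobulin genes were higher in KO (0.533%) and 20 lower (0.394%). The median log2 ratio over the 5070 genes was -0.0033, with quartiles at -0.09 and 0.07. For scale, 8 and 11 of 6087 genes met the first 3 criteria in the 2 directions between the Day14 libraries over all cells, and 11 and 15 of 6032 within their cluster 2. In the chimaera cluster those criteria gave 27 and 21. With every cell thinned to 2000 UMIs, the rule gave 86 higher and 111 lower genes, of which 21 and 14 were shared with the 27 and 20. Thinning leaves fewer UMIs behind each ratio and so more counting error, and its part in these counts was not tested. With cells weighted alike and not thinned, the rule gave 32 and 22.

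Gadd45g, a stress-induced gene of growth arrest, showed the largest ratio. It was at 4.72 CPM in the control cluster (60 UMIs in 47 cells) and 26.2 CPM in the KO cluster (354 UMIs in 240 cells), a log2 ratio of 2.47 (2.07 to 2.89). Rflnb, an actin-bundling regulator, was at 4.09 and 22.4 CPM (2.45, 2.03 to 2.91). Serpinb6b, a protease inhibitor, was at 9.91 and 32.2 CPM (1.70). The 5 cells with the most Gadd45g held 25% of its 60 control UMIs and 6.78% of its KO UMIs.

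The other genes with the largest ratios included signalling and trafficking genes. Fcer2a had a log2 ratio of 1.02 (0.91 to 1.12) and was detected in 582 of 1339 control and 848 of 1292 KO cells. In cluster 7, where it was lowest, it stood at 24.1 and 33.7 CPM. Samsn1, an adaptor that dampens B cell activation, was at 38.8 and 89.1 CPM. Pkib, an inhibitor of protein kinase A, was at 17.7 and 41.9 CPM. Dock10, an exchange factor for small GTPases that IL-4 induces in B cells, was at 30.6 and 61.3 CPM. Tmem123 was at 73.2 and 154 CPM, and Rab35, a GTPase of endosome recycling, at 35.1 and 67.4 CPM. Wdfy2, Dexi and Slc15a3 had log2 ratios of 1.04, 1.02 and 0.82. Among the remaining 15 were Cd83 at 269 and 390 CPM, and Xbp1, a factor of secretory cells and of the IL-4 response, at 140 and 202 CPM.

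The lower genes had smaller ratios. Clec2i, a C-type lectin, was at 21.9 CPM in control cells and at 10.6 CPM in KO cells (log2 -1.05, -1.35 to -0.76), and was the only one of the 20 beyond -1. Apoe, a lipid carrier, was the most abundant, at 551 and 342 CPM (-0.69). Rpia, of the pentose phosphate pathway, was at 67.7 and 41.2 CPM. Cd72, a coreceptor that inhibits B cell receptor signals, was at 105 and 70.6 CPM, and Irf1, an interferon-response factor, at 56.8 and 37.0 CPM. Tnf, the cytokine, was at 39.0 and 26.0 CPM, and Lta, its neighbour gene, was among the 20 too. Tox2 was at 21.9 and 13.8 CPM, Fes at 23.8 and 16.1 CPM and Ptms at 24.3 and 14.9 CPM. Hbb-bt, a haemoglobin gene, was at 100.2 and 60.4 CPM, and Lck at 87.6 and 58.9 CPM. Lck made up nearly all of the summed T cell markers given above, so that sum says nothing further about T cells. Hbb-bt made up 100.2 of the 104 CPM of erythroid markers in control cells and 60.4 of the 71.0 CPM in KO cells. Of the 2 erythroid markers that counted as measured, 1 was above 0 and 1 below, so they had no common direction.

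The 12 largest ratios on each side were followed through the cell cycle calls and the DZ and LZ calls. These genes were picked by their ratios in the same cells, so a shared direction was largely built in and carries no test. Phase groups and zone groups also divide the same cells, so the ratios are not separate from each other. All 12 higher genes were above 0 among G1, S and G2M calls and in DZ and LZ cells, with medians from 1.02 to 1.28. All 12 lower genes were below 0 in the same 5 groups, with medians from -0.77 to -0.60. Fcer2a was at 73.9 and 144 CPM in DZ cells and at 124 and 258 CPM in LZ cells. Gadd45g was at 4.63 and 25.4 CPM in DZ cells and at 5.91 and 31.0 CPM in LZ cells. Of these 120 ratios, 8 had an interval that held 0. They were Lck and Tox2 among G1 calls, and Fes, Ptms, Rpia, Slc15a3, Tnf and Tox2 among the 150 and 170 cells with G2M calls. Among the 133 and 69 cells of unknown zone, Lck had the opposite direction, at 57.4 and 70.6 CPM, with an interval from -0.33 to 0.92.

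Most of these differences were also present in the other cells. Of the 27 higher genes, 26 were also above 0 in the other cells and 21 reached 0.5 there. Of the 20 lower genes, 20 were below 0 in the other cells and 11 reached -0.5. Over the 5070 genes tested in cluster 1, the median ratio in the other cells was 0.02, with quartiles at -0.05 and 0.08. In reverse, 41 genes were past the rule higher in the other cells and 19 of them in cluster 1. Of 55 lower in the other cells, 10 were also lower past the rule in cluster 1, 23 were under 20 CPM there and 10 were above 0. Gadd45g had a ratio of 2.11 in the other cells and between 1.24 and 2.56 in the 7 other clusters. Fcer2a ranged there from 0.37 in cluster 6 to 1.28 in cluster 2, with 1.02 in cluster 1. Xbp1 was the exception, at 0.53 in cluster 1 and -0.04 in the other cells. By cluster, Xbp1 was above 0 in 6 others, at 0.31 to 1.09, and at -0.22 in cluster 7, where its level was 1780 and 1533 CPM.

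Among genes with 20 CPM in the cluster in at least 1 library, the 6 with the largest gaps above the rest were Slpi, Sub1, Klf2, Pdia4, Xbp1 and Sfn. Slpi had a KO over control ratio of 0.36 in cluster 1 and -1.07 in the other cells, Pdia4, a chaperone of the secretory pathway, 0.26 and -0.45, and Sub1 0.09 and -0.89. Klf2 stood at 0.43 and -0.40, and Sfn at 0.23 and -0.34. Cluster 7, with the most Slpi and Sub1, made up 3.58% of control and 1.86% of KO cells, and cluster 3, with the most Klf2, 16.2% and 12.9%. Within cluster 7 the Slpi ratio was -0.55, and over clusters 0 and 2 to 6 it lay between -0.13 and 0.44. In the opposite direction, Klhdc2 had 0.47 in cluster 1 and 1.11 elsewhere, and Mtpap -0.48 and 0.19. Tceanc2, Sfmbt1, Cblb and Prps1l3 had gaps of -0.51 to -0.43. The part of the cluster sizes in these gaps was not tested.

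**Figure D5:**
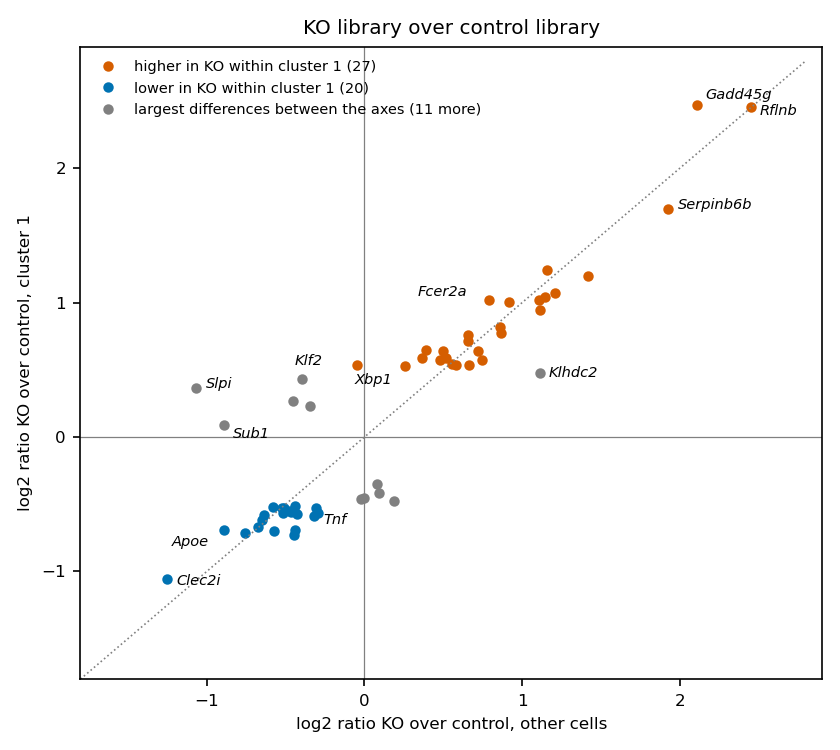
Log2 ratio of the KO over the control library in the other cells (horizontal axis) and in cluster 1 (vertical axis) for the 27 higher and 20 lower genes of cluster 1 and for the named genes with the largest gap between both axes; the dotted line marks equal ratios. All 20 lower genes and 26 of the 27 higher genes lie on the same side of 0 on both axes, while Slpi, at 0.36 in cluster 1 and -1.07 elsewhere, does not.

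Gene lists differed in how evenly their members lay on either side of 0 between the libraries. S phase genes had a median KO over control log2 ratio of -0.02 (6 of 16 above 0), against 0.14 for the same genes in the other cells. All 18 G2/M genes were above 0, with a median of 0.23 against 0.14 in the other cells, and none was past the size rule. Ube2c was at 150 and 187 CPM. G2M calls were 11.2% and 13.2% of the cluster. With each phase and zone group given the same share in both libraries, the G2/M median was 0.16. Of 13 histone genes, 12 were above 0 (median 0.23, other cells 0.35). Over all measured genes, 46.1% were above 0 with a median of -0.01. Of 14 B cell receptor signalling genes 1 was above 0 (median -0.10, other cells -0.05). Of 16 GC identity genes 4 were above 0 (median -0.13, other cells -0.05), with Mef2b at 549 and 410 CPM. Immediate early genes had 2 of 12 above 0 (median -0.22, other cells -0.25). Interferon genes had 1 of 6 above 0 (median -0.20, other cells -0.43), with none past the rule in either list.

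The 12 measured genes of the IL-4 and STAT6 response split evenly, with 6 above 0 and a median of 0.03 (other cells -0.08). Past the rule were 2 of them, Fcer2a and Xbp1, against 0.533% of all genes tested. Il4i1, an enzyme that IL-4 induces, was at 102 and 136 CPM, and Socs1, a feedback inhibitor of cytokine signals, at 48.1 and 64.3 CPM, both below the threshold of the rule. Il4ra, which is not deleted in these donor-derived cells, was at 66.9 and 72.3 CPM, and Stat6 at 24.3 and 20.3 CPM. Bcl6 was at 44.0 and 38.0 CPM, Batf at 27.3 and 23.4 CPM and Id2 at 14.9 and 10.3 CPM. Of the 3 Fcer2a promoter windows in the RefSeq table, the one at chr8:3690812-3691111 (minus strand, GRCm38.p6) holds 1 match to the STAT6-type motif, TTC and GAA with NNNN between them, searched on both strands. It is shown with the match in capitals because Fcer2a is a known IL-4 target among the 27 genes.
Fcer2a: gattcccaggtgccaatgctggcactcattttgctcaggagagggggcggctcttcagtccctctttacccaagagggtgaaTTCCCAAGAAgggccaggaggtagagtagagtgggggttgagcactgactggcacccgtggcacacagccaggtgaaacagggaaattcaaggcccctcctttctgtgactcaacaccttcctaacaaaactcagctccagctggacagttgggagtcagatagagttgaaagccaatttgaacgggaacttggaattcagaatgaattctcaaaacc
Such a motif stood in 3 of the 22 higher genes with a promoter (13.6%), against 6.15% of the 3742 genes with 20 CPM. The share was 8.01% of all 27025 genes with a promoter and, counted by window, 6.95% of all windows.

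Immunoglobulin genes took 1.13% of UMIs in the control cluster and 1.04% in the KO cluster, against 2.68% and 1.57% in the other cells. The median share per cell was alike, at 1.035% in the cluster and 1.035% in other cells of the control library and at 0.979% and 0.941% in the KO library. Of 87 such genes tested, 52 were called lower than in the other cells (59.8%), and 0 of 56 higher. Cluster 7, counted among those other cells, held 23.1% and 18.2% immunoglobulin UMIs, and its part in the comparison was not tested. Clusters 4, 5 and 6 lay below cluster 1, at 0.844% to 0.904% in the control library and 0.792% to 0.890% in the KO library. Ighm was the most abundant heavy chain constant gene, at 860 and 832 CPM, followed by Ighg1 at 252 and 260 CPM. Between the libraries, 7 of 77 genes were past the size rule higher (9.09%) and 14 lower (18.2%). Ighg2c, at 34.1 and 15.5 CPM, was not among them, since its ratio between the Day14 libraries was larger (1.44). Igha was at 92.5 and 4.14 CPM, but 1 control cell held 914 of its 1176 UMIs, and the cells with an Igha UMI numbered 111 and 48. Ighv1-72, the heavy chain segment typical of NP-specific antibodies, took 15.8% and 17.1% of heavy chain V UMIs, and Iglv1 took 88.1% and 88.6% of lambda V UMIs.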

How the data were processed

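Single-cell RNA was measured in 6 libraries, of which the 2 chimaera libraries are described here. The authors deposited raw UMI counts per gene and cell, with a cell table giving library, cluster, phase and zone. Cell Ranger, Seurat and the build mm10 are named in the submitters' processing notes, and how the clusters and calls were made is not given in the sources used here. The members and gene lists were chosen with earlier results of these data known.

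The deposited counts were summed per library and set of cells, and a ratio was formed of CPM values with an exact conditional binomial interval at 95%. A count of 0 was set to 0.5. Shares carry Clopper-Pearson intervals. These intervals cover counting error only. Leading genes and KO differences followed the rules stated beside them, and list members counted as measured at a mean of 5 CPM. Named were the 15 leading higher genes, 12 leading lower genes and 12 KO differences in each direction with the largest ratios, and 6 gaps between cluster 1 and the other cells in each direction. Model names and immunoglobulin genes were not named by these rules. Other genes were named from 29 lists with 363 entries. Some genes that these rules name are not reported here. With 1 library per group no model was fitted and no p-value is given. The labels do not say that the 2 Day14 libraries are separate animals. No doublet caller was run, and an alternative left out the 5% of cells with the most UMIs. The calculation recovered log2 changes of 1 in either direction that were placed in simulated data with counting noise only. Smaller changes, the Day14 criterion and differences between libraries were not part of that simulation. Python 3.11.15, numpy 2.4.6, scipy 1.17.1, pandas 2.3.3, R 4.3.3 and edgeR 4.0.16 (TMM factors only, as an alternative) were used.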

Additional observations from a re-analysis of the deposited data

How the results depend on the processing

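No paired analysis was possible because each chimaera group holds 1 library and no test was made, and for the same reason no library could be left out. The genes called were 48 higher and 139 lower in the cluster, and 27 higher and 20 lower in KO. A minimum of 5 CPM gave 80, 246, 67 and 110 in that order, and a log2 ratio of 1 gave 1, 30, 10 and 1. Weighting cells alike gave 85 leading higher genes. Thinning each cell to 2000 UMIs gave 84 leading higher genes, of which 42 were shared with the 48, and 86 higher and 111 lower in KO, of which 21 and 14 were shared. Thinning left out 5 control and 1 KO cell of the cluster, and 385 and 258 other cells. With the phase make-up of cluster 1 given to the other cells, 7 genes were higher and 83 lower. Over cells above the median UMI count, the cluster made up 23.7% of control and 25.5% of KO cells, with DZ shares of 63.5% and 66.2% and an S share of 64.4% in KO. The cause of these shifts was not tested. Under thinning the Cblb gap between cluster 1 and the other cells changed sign, from -0.44 to 0.0689. TMM scaling gave 44, 148, 30 and 18 and moved the median KO ratio of all genes to 0.02. Chosen after seeing the data, the Day14 ratio within its cluster 2 gave 26 and 20 KO calls, and leaving out barcodes found in both libraries gave 47, 138, 29 and 20.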
